A study of Mus musculus with 36 samples.

Results

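The genes described here are 7 that mark red cells: the embryonic globins Hbb-y, Hba-x and Hbb-bh1, the adult-type globins Hbb-b1 and Hba-a1, the haem enzyme gene Alas2, and Trim10. They were taken by name, as every probe that the deposited table names for one of them, which gave 7 genes of 30869 gene names and 21 probes of 45281. Of these probes 18 were detected somewhere among the arrays (detection p-value under 0.01), and each of the 7 genes kept at least 1 probe, Trim10 through a single array. RNA from pools of 6 to 74 microdissected pieces of wild-type MF1 mouse embryos, an outbred stock, had been hybridised to 36 Illumina arrays, run in 3 batches of 12. The pools cover 16 regions. At E7.5 (headfold stage) these are the anterior part A, fated for the nervous system, the posterior part P, which holds the primitive streak, and PP, the streak's posterior end. At E8.5 (2 to 5 somites) they are the rostral node RN, the border of node and streak NSB, the lateral caudal epiblast CLE, and the most rostral and most caudal pieces of the streak, St1 and St5. The tail bud gave the chordoneural hinge, CNH, sampled daily over E9.5-E13.5, and P-CNH, which adjoins it posteriorly, over E9.5-E11.5. There are 3 arrays each for A, NSB, CLE and the CNH of E11.5, and 2 for every other region. Every array holds pooled embryos and a mixture of cells, and mesoderm and endoderm lying under the epiblast had been removed from CLE only.

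Red cells of the mouse embryo arise in successive waves. Primitive red cells form in the blood islands of the yolk sac and enter the embryo when the heart starts to beat, and definitive red cells come later from the fetal liver. Each haemoglobin pairs alpha-type with beta-type chains: Hba-x encodes the embryonic alpha-type zeta chain, Hbb-y and Hbb-bh1 the embryonic beta-type chains, Hba-a1 the alpha chain used from the embryo onwards, and Hbb-b1 the adult beta chain. In primitive red cells Hbb-bh1 is known to precede Hbb-y. Alas2 makes the first intermediate of haem in red cells, and Trim10 is a ubiquitin ligase of maturing red cells. None of these genes is known to be a gene of streak or tail bud progenitors, so their levels in a pool were read as the red cell transcripts it contains.

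In RefSeq (GRCm38.p6) Hba-x and Hba-a1 lie in the same gene cluster and Hbb-y in the beta-globin cluster. Of the 7 genes, 5 had a promoter sequence in the RefSeq table (GRCm38.p6); Hbb-bh1 and Hbb-b1 had none. The 150 bases before the start of 3 of them are shown because these genes rise together yet keep different schedules, as the values further on show: Hbb-y is on the minus strand at chr7:103853208-103853357, Hba-x on the plus strand at chr11:32276450-32276599 and Hba-a1 on the plus strand at chr11:32283522-32283671. Capitals mark 4 motifs (CACCC, the box CCAAT, also GATAA, and the element TATAA), each searched on both strands, with no overlap among the matches.
Hbb-y: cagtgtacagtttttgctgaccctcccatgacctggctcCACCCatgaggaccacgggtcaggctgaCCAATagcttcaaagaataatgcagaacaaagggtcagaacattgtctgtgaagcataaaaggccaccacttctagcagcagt
Hba-x: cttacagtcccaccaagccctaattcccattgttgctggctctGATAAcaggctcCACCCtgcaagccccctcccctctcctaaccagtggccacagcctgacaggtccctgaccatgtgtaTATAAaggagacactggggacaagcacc
Hba-a1: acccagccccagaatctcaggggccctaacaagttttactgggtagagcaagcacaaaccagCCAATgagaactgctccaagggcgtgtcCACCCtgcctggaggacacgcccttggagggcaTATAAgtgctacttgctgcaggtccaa
All 3 stretches hold CACCC, at 111, 95 and 60 bases before the start of Hbb-y, Hba-x and Hba-a1. CCAAT is present in Hbb-y and Hba-a1 and not in Hba-x, GATAA in Hba-x alone, and TATAA in Hba-x and Hba-a1, at 28 and 27 bases before the start. Among stretches of the same length from 27025 genes, 36.9% hold CACCC, 25.3% CCAAT, 13.6% GATAA and 14.7% TATAA. Only these exact letters were searched, so a near match such as cataaaa in Hbb-y is not marked. The marked matches are a description of the letters and nothing about binding was measured.

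**Figure D1:**
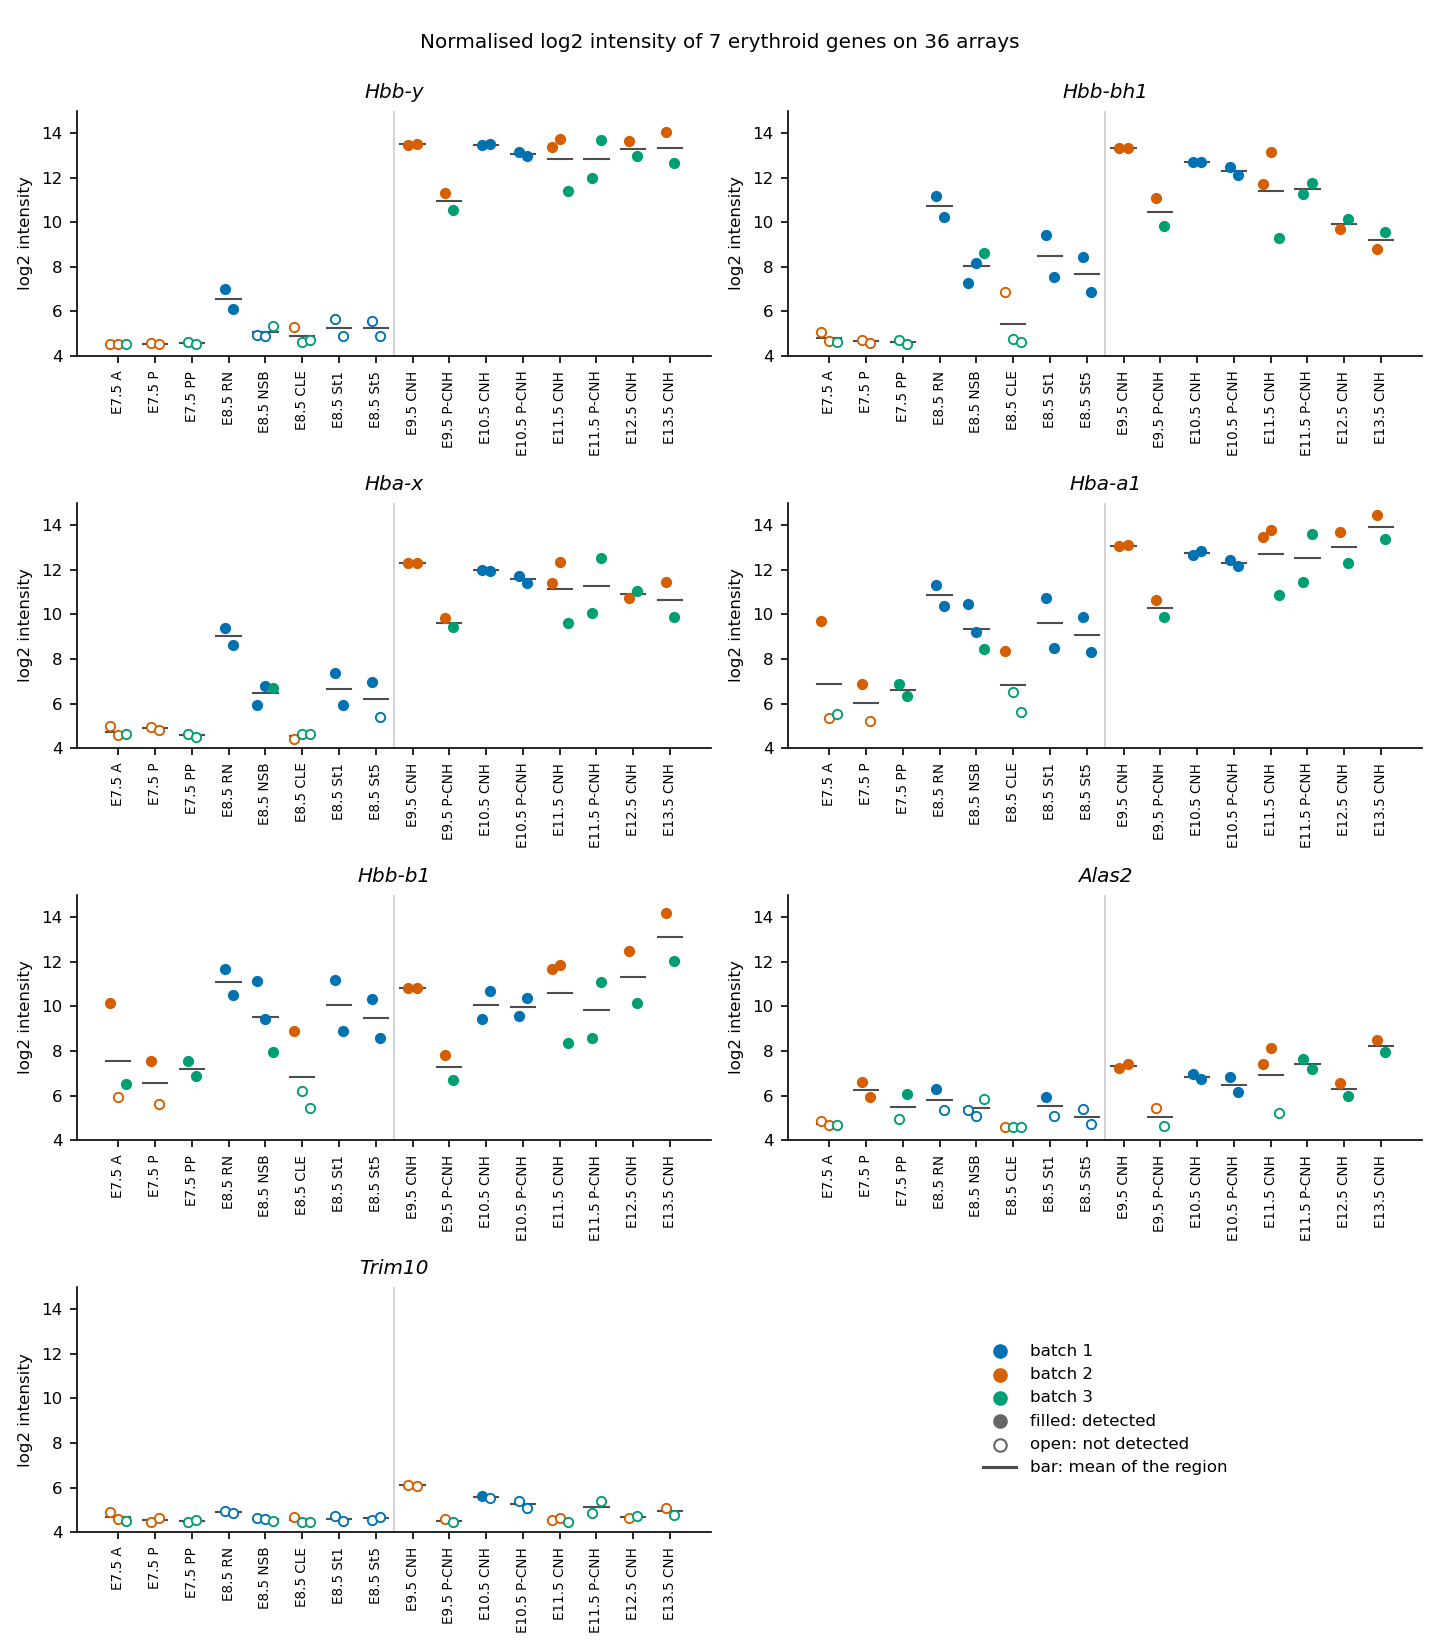
Normalised log2 intensity (vertical axis) of the 7 genes on each of the 36 arrays, by region (horizontal axis); points are arrays, coloured by batch, open where the probe was not detected, and bars are region means. Hbb-y lies between 10.54 and 14.04 on the 17 tail bud arrays and at or below 7.02 on the 19 arrays up to E8.5.

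Over all 36 arrays each of the 7 genes differed among the 16 regions (limma's moderated F test, adjusted p of 0.00035 or below), where 38.1% of the 15556 genes tested did. Trim10 was detected on 1 array only, so for it the test compares mostly background values and is not read as a change. Values here are log2 intensities after background correction and quantile normalisation, and detected means a detection p-value under 0.01. Hbb-y was the gene most sharply divided by stage. Its brighter probe, used here, was detected on 2 of 19 arrays up to E8.5, the 2 RN arrays, and its other probe on 3; both were detected on 17 of 17 tail bud arrays, where the median of the brighter was 13.37. On the tail bud arrays its raw intensity ranked between 131 and 3103 among the 45281 probes, with a median rank of 314, so that it was among the brightest probes of most of these arrays. Hba-x, too, had no overlap between the stages, with a highest value of 9.41 up to E8.5 and a lowest value of 9.42 in the tail bud. The other 5 genes overlapped.

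The 16 region means were put in order of level. For Hbb-y the order ran from E9.5 CNH at 13.49 ± 0.04 (SD, n = 2), E10.5 CNH at 13.47 ± 0.03 (n = 2) and E13.5 CNH at 13.35 ± 0.98 (n = 2) down to E9.5 P-CNH at 10.93 ± 0.56 (n = 2), RN at 6.57 ± 0.63 (n = 2) and the 3 E7.5 regions between 4.53 and 4.597. Among the 15 steps between neighbours in this order, 2 passed an adjusted p of 0.05: from E11.5 P-CNH to E9.5 P-CNH (0.00521) and from E9.5 P-CNH to RN (0.00680). For Hbb-bh1 the order began with E9.5 CNH at 13.34 ± 0.02 (n = 2) and E10.5 CNH at 12.71 ± 0.01 (n = 2). RN, at 10.71 ± 0.66 (n = 2), stood above E12.5 CNH at 9.92 ± 0.33 (n = 2) and E13.5 CNH at 9.19 ± 0.52 (n = 2), an order that Hbb-y does not have. Hba-a1 and Hbb-b1 both peaked in E13.5 CNH, at 13.92 ± 0.78 and 13.11 ± 1.52 (n = 2 each), and Hbb-b1 placed RN, at 11.10 ± 0.85 (n = 2), below E13.5 CNH and E12.5 CNH alone. For the other 6 genes none of the 15 neighbouring steps passed. The pairs were picked by the order itself, so a step that failed does not show that regions are alike.

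At E7.5 the embryonic globins were at background in every pool. On the 7 arrays Hbb-y lay between 4.52 and 4.64, Hbb-bh1 between 4.55 and 5.09 and Hba-x between 4.52 and 4.99, and none was detected on any of them. The adult-type pair was detected on some. Hbb-b1 read 10.17, 5.94 and 6.54 in the 3 A pools, 7.54 and 5.60 in P, and 7.56 and 6.86 in PP, and was detected on 5 of 7 arrays. Hba-a1 read 9.69, 5.35 and 5.54 in A, 6.88 and 5.21 in P, and 6.88 and 6.33 in PP, and was detected on 4 of 7. A replicate 1, a pool of 9 pieces, was thus the highest of the 7 for both, with all embryonic globins undetected on the same array. The adult-type pair was thus seen on E7.5 arrays where no embryonic globin was detected. Whether these transcripts came from cells of the embryo was not tested, so no order of globin expression is read from them.

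Alas2 followed neither group at E7.5. It read 6.59 and 5.94 in P and 4.94 and 6.06 in PP, and between 4.69 and 4.85 in A. It was detected on both P arrays and on PP replicate 2, and on no A array. None of the 7 genes was called (adjusted p of at most 0.05 and at least 1.5-fold) in PP minus P or in PP minus A in limma, where 0.829% and 6.79% of all genes were; at an unadjusted p under 0.05 the counts were 2 of 7 and 1 of 7, against 1614 and 2808 of 15556. Alas2 in PP minus A had a log2 difference of 1.28 ± 0.51 (SE; adjusted p = 0.176; n = 2 and 3). Visceral endoderm markers were highest in PP. The summed intensity of the 7 (Afp, Ttr, Apoa1, Apoa2, Apob, Rbp4, Amn) was 37659 and 17969 in PP, with Ttr the most abundant and 7 of 7 detected. It was 10763 and 6066 in P, and 2104, 2163 and 10890 in A. Of the 7, 5 were called higher in PP than in A and 2 higher than in P. Red cell genes were called in PP minus A as well. Of 7 erythroid regulators tested Lmo2 was called higher (2.67 ± 0.38, adjusted p = 4.69e-05). Of 10 red cell membrane genes 1 was called lower (-1.16 ± 0.24, adjusted p = 0.00359). None of either list was called in PP minus P. What part any of these has in the Alas2 values was not tested.

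At E8.5 the embryonic globins were highest in the rostral node. Hbb-bh1 read 11.17 and 10.24 in RN, 9.42 and 7.53 in St1, 7.27, 8.19 and 8.60 in NSB, 8.46 and 6.88 in St5, and 6.88, 4.79 and 4.63 in CLE. It was detected on the 9 arrays of the first 4 regions and on none of CLE. Hba-x read 9.41 and 8.61 in RN, 7.38 and 5.93 in St1, 5.94, 6.77 and 6.70 in NSB, 6.98 and 5.42 in St5, and 4.42, 4.62 and 4.65 in CLE. The RN arrays of both genes lay above every other E8.5 array. Hbb-y read 7.02 and 6.13 in RN, and no more than 5.66 elsewhere, where this probe was not detected. The second Hbb-y probe was detected in RN, at 6.87 and 6.42, and on St1 replicate 1, at 5.88. Of the embryonic beta-type pair at 2 to 5 somites, Hbb-bh1 was thus seen in 4 of the 5 regions, and Hbb-y on both RN arrays and, by 1 of 2 probes, on 1 St1 array.

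Set against the mean of the remaining E8.5 regions, 3 of 7 genes were called higher in RN and none lower, where 2.53% of all genes were called. Hbb-bh1 was higher by 3.69 ± 0.67 in log2 (SE; adjusted p = 0.00139; n = 2 and 10), with 2 of 2 RN arrays above all 10 others. For Hba-x the difference was 3.21 ± 0.60 (adjusted p = 0.00219). They were detected on 7 and 6 of the 10 other arrays, so no fold is given. Hbb-y, whose brighter probe was not detected in the other regions, was at least 1.56-fold higher by that probe, with a fitted difference of 1.67 ± 0.41 (adjusted p = 0.0242); the other probe gave 1.77 (adjusted p = 0.00349). Among the arrays of batch 1 alone, which hold RN, NSB, St1 and St5, the differences were 2.75, 2.61 and 1.42 (adjusted p = 0.00369, 0.00218 and 0.00283 for Hbb-bh1, Hba-x and Hbb-y). Without RN replicate 1, which leaves RN a single array, they were 3.22, 2.81 and 1.23 and no longer called (adjusted p = 0.0887, 0.115 and 0.783). The Hbb-y call was also lost without NSB replicate 1 or 2 (adjusted p = 0.0633 and 0.0675). Among other settings, it was lost without background correction (0.887, adjusted p = 0.679) and with offset 100 (0.714). It was lost as well with no batch term (1.45, adjusted p = 0.128) and with no filter (1.67, adjusted p = 0.0527). The second, dim probe of Hbb-bh1 did not differ in RN (0.026, adjusted p = 1). In such pools, more red cells and more globin RNA per cell cannot be told apart.

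The adult-type globins at E8.5 varied widely between replicates. Here too, whether their transcripts came from cells of the embryo was not tested. Hbb-b1 read 11.70 and 10.496 in RN, 11.13, 9.44 and 7.94 in NSB, 11.18 and 8.91 in St1, 10.35 and 8.56 in St5, and 8.88, 6.22 and 5.46 in CLE. Hba-a1 read 11.34 and 10.39 in RN, 10.47, 9.19 and 8.43 in NSB, 10.72 and 8.48 in St1, 9.88 and 8.30 in St5, and 8.36, 6.52 and 5.64 in CLE. In each of the 4 regions with replicates 1 and 2 in batch 1, all from pools of 45 pieces, replicate 1 was the higher, by 1.20 to 2.26 for Hbb-b1 and by 0.95 to 2.24 for Hba-a1. All replicates 1 of these regions share a BeadChip and all replicates 2 another, so pool and BeadChip cannot be told apart here. Within each BeadChip RN was the highest and St5 the lowest of the 4 regions for both genes. For Hbb-bh1 and Hba-x replicate 1 was the higher in 3 of 4 regions and replicate 2 in NSB, where Hbb-bh1 differed by -0.92. The spread between replicates up to E8.5 was accordingly wide for Hbb-b1 (SD of 1.62 within regions) and Hba-a1 (1.47), against 0.84 for Hbb-bh1, 0.54 for Hba-x and 0.34 for Hbb-y. In RN the adult-type differences were 1.54 ± 0.93 for Hbb-b1 (adjusted p = 1) and 1.82 ± 0.86 for Hba-a1 (adjusted p = 0.778), neither of them called.

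**Figure D2:**
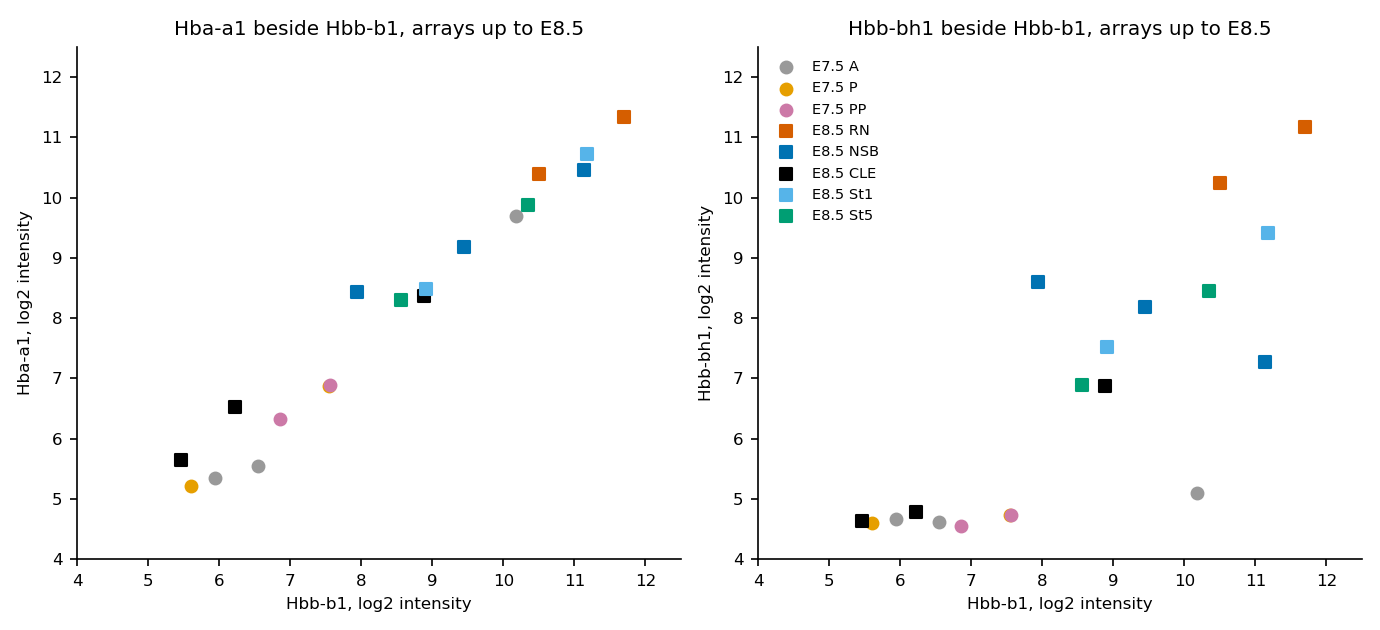
Log2 intensities of Hba-a1 (left, vertical axis) and of Hbb-bh1 (right, vertical axis) beside Hbb-b1 (horizontal axis) on the 19 arrays up to E8.5; each point is an array, circles E7.5 and squares E8.5, coloured by region. Hba-a1 runs along with Hbb-b1 from the lowest to the highest arrays, whereas E7.5 A replicate 1, at 10.17 for Hbb-b1, is at 5.09 for Hbb-bh1.

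CLE had the least globin of the E8.5 regions. Against the mean of the others 1 of 7 genes was called, where 1.14% of all genes were: Hbb-bh1, undetected in CLE and detected on 9 of 9 other arrays, was at least 4.51-fold lower (fitted log2 difference -4.44 ± 1.00, adjusted p = 0.0278, n = 3 and 9). Hba-x, with 0 of 3 against 8 of 9 arrays detected, was at least 1.45-fold lower, with a fitted difference of -3.06 ± 0.91 that missed the threshold (adjusted p = 0.165). The Hbb-bh1 call was lost without NSB replicate 1, CLE replicate 2 or CLE replicate 3 (adjusted p = 0.124, 0.0515 and 0.0663). It was also lost without background correction (-3.07, adjusted p = 0.148), with offset 100 (-2.85, adjusted p = 0.203) and with cyclic loess (-3.92, adjusted p = 0.328). The second probe of Hbb-bh1 gave -0.23 and was not called. No CLE array is in batch 1 and all of RN, St1 and St5 are, so the comparison rests on the batch term. Without one, Hbb-bh1, Hba-x, Hba-a1 and Hbb-b1 were all called lower (-3.29, -2.52, -2.89 and -3.17). With batch means removed instead, Hbb-bh1 was not called (-1.71, adjusted p = 0.121). Hbb-y and Hba-x were then called lower (-1.42 and -1.99, adjusted p = 0.00671 and 0.0138). Of the 7 visceral endoderm markers 1 was called in the same comparison, Ttr, at least 7.62-fold lower in CLE (adjusted p = 0.0180). Their summed intensity averaged 442 in CLE, 1076 in NSB, 2005 in St1, 2124 in St5 and 2328 in RN. Their part in the globin difference was not tested.

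In St5, the caudal streak, none of the 7 genes was called in limma when St5 was set against the mean of its E8.5 neighbours, where 6.10% of all genes were, and none reached an unadjusted p under 0.05 against 2005 of 15556 genes. Hbb-bh1 differed by -0.11 ± 0.67 and Hbb-y by 0.0093 ± 0.41 (n = 2 and 10). Among batch 1 arrays alone the differences were -1.30 for Hbb-bh1, -1.14 for Hba-x and -0.35 for Hbb-y, none of them called (adjusted p = 0.0859, 0.0843 and 0.352). In the same comparison 2 of 7 tested erythroid regulators rose, Gata2 by 3.89 ± 0.63 (adjusted p = 0.000196) and Tal1, at least 2.11-fold (adjusted p = 6.02e-05), both transcription factors of blood progenitors. Endothelial markers rose with them, 4 of 6, led by Tek (2.58 ± 0.35, adjusted p = 2.69e-05), Cdh5 (at least 2.94-fold, adjusted p = 2.78e-05) and Flt1 (2.12 ± 0.40, adjusted p = 0.00102). In RN 1 of the 7 regulators was called, Lmo2, a partner of Tal1, which was lower (-1.78 ± 0.34, adjusted p = 0.00253), and none of the 6 endothelial markers was called. From E7.5 PP to E8.5 St5 none of the 7 genes was called, where 1.05% of all genes were (1 of 7 and 1871 of 15556 at an unadjusted p under 0.05). Hbb-bh1, undetected in PP and detected on both St5 arrays, was at least 4.07-fold higher there, with an adjusted p of 0.135.

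From E8.5 NSB to E9.5 CNH all 3 embryonic globins were higher. Hbb-y read 4.96, 4.91 and 5.36 in NSB and 13.46 and 13.52 in E9.5 CNH. Hba-x read 5.94, 6.77 and 6.70 against 12.28 and 12.31, and Hbb-bh1 7.27, 8.19 and 8.60 against 13.35 and 13.33. No array of either region overlapped the other for these genes. E9.5 CNH replicates differed by less than 0.1 for each of them, although they were pools of 6 and 10 pieces.

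In E9.5 CNH minus E8.5 NSB 4 of 7 genes were called higher and none lower, where 5.76% of all genes were called; the median difference of the 7 was 2.86, against 0.041 over all genes. Hbb-y, undetected in NSB, had a fitted difference with the batch term of 7.19 ± 0.62 (146-fold, adjusted p = 3.76e-08, n = 2 and 3). By the means without that term it was 193-fold higher, so neither figure is a minimum. Hba-x rose by 4.94 ± 0.92 (30.8-fold, adjusted p = 0.00136) and Hbb-bh1 by 3.67 ± 1.01 (12.7-fold, adjusted p = 0.0355). E9.5 CNH shares no batch with NSB, and with no batch term these differences were 5.82 and 5.32. The Hbb-bh1 call was lost without E9.5 CNH replicate 1 or 2, E7.5 A replicate 3, or E12.5 CNH replicate 1 or 2 (adjusted p of 0.116, 0.114, 0.0507, 0.0526 and 0.0526), with replicate number as a block (3.14, adjusted p = 0.0919), and with cyclic loess (3.54, adjusted p = 0.111). Trim10 was also called (1.43 ± 0.25, adjusted p = 0.000696), but it was below detection on all 5 arrays, so no fold is given. Hba-a1 read 13.06 and 13.09 at E9.5 and its difference of 2.86 ± 1.31 missed the threshold (adjusted p = 0.269), as did that of Alas2, 0.71 ± 0.69 (adjusted p = 0.732); with no batch term both were called (3.72 and 1.90, adjusted p = 0.0339 and 0.0299). Hbb-b1, at 10.84 and 10.81, lay within the range of NSB, with a difference of 0.56 ± 1.42 (adjusted p = 0.928).

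Of 10 membrane genes of red cells tested, 4 were called higher in E9.5 CNH. Among them Slc4a1, the anion exchanger band 3, had a fitted difference of 3.47 ± 0.68 (11.1-fold, adjusted p = 0.00240). By the means without the batch term Slc4a1 was 12.1-fold higher, so neither figure is a minimum. Epb4.9, which bundles actin under the membrane, rose by 2.53 ± 0.66 (adjusted p = 0.0238). None of 11 haem and iron genes, 6 red cell enzymes, 7 regulators or 6 endothelial markers was called. Endothelial markers and globins did not keep to a common order. The summed intensity of the endothelial markers was 256 and 306 in E9.5 CNH, with 0 and 1 of 6 detected and Esam the most abundant, against 1661 and 1996 in E8.5 St5. In E10.5 CNH both were high, with 1149 and 1494 for the endothelial markers and 22067 and 22123 for the embryonic globins. Visceral endoderm markers summed to 275 and 266 in E9.5 CNH, with 0 of 7 detected on both arrays.

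**Figure D3:**
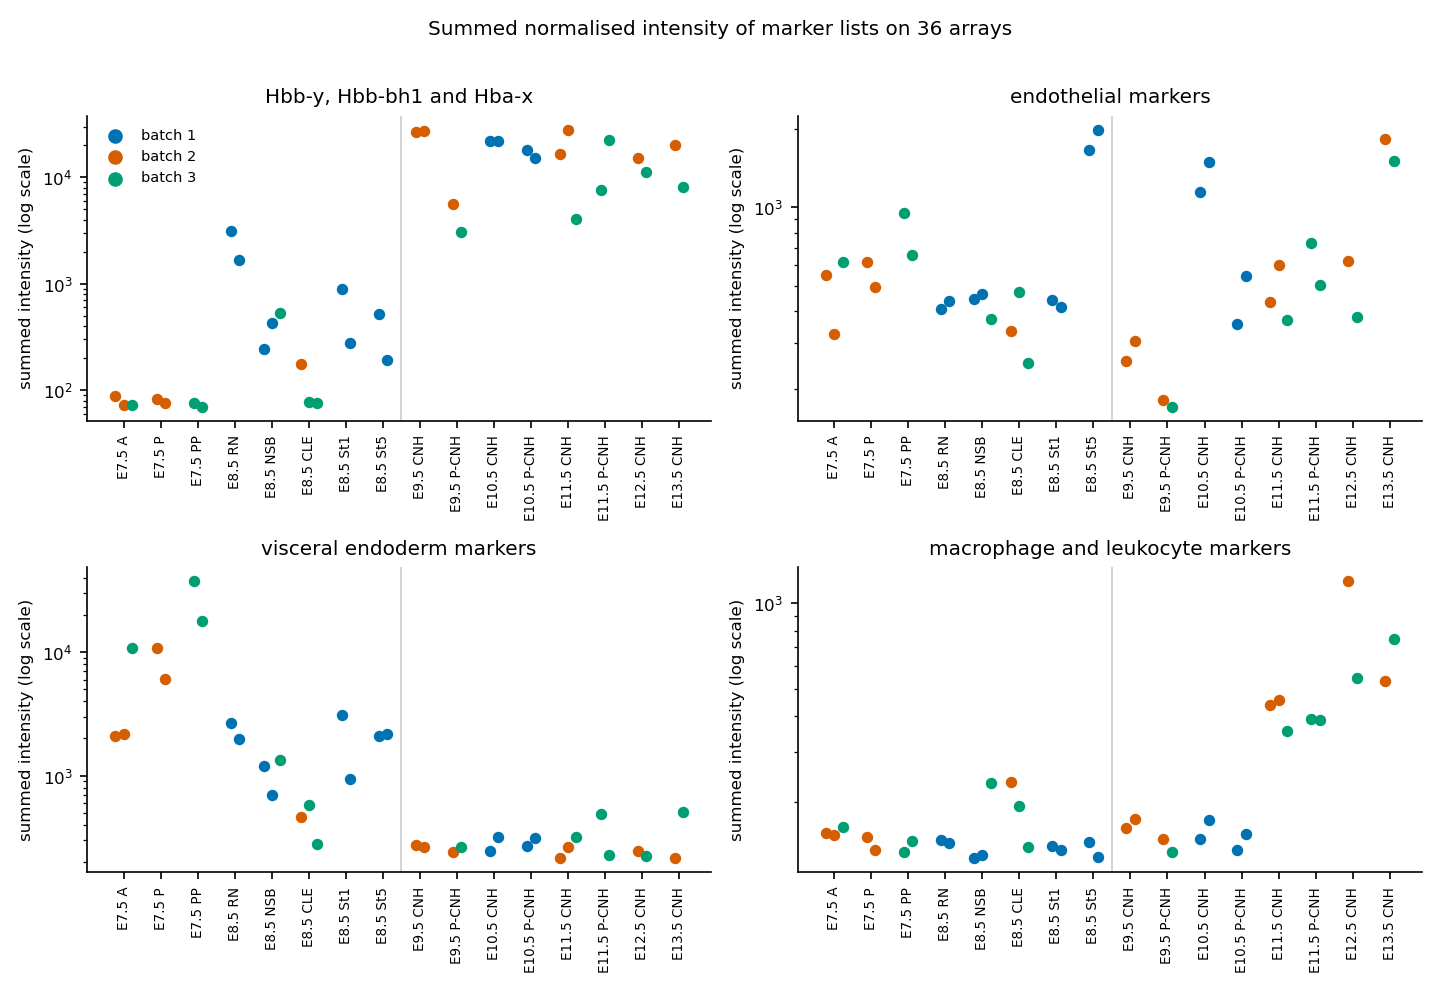
Summed normalised intensity (vertical axis, log scale) of the 3 embryonic globins and of the endothelial, visceral endoderm and macrophage and leukocyte markers on each of the 36 arrays, by region (horizontal axis) and coloured by batch. E9.5 CNH is at 26722 and 27087 for the embryonic globins and at 256 and 306 for the endothelial markers.

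Set together, the 17 tail bud arrays against the 19 earlier ones had 6 of 7 genes called higher and none lower, where 20.7% of all genes were called; the median of the 7 was 4.21, against -0.0062 over all genes. Hba-a1 rose by 4.44 ± 0.42 (adjusted p = 1.72e-08) and Hbb-b1 by 1.99 ± 0.46 (adjusted p = 0.00161). They were detected on 14 and 15 of the 19 earlier arrays, so no fold is given for them. The fitted differences were 7.59 ± 0.20 for Hbb-y (adjusted p = 2.96e-18), 5.12 ± 0.30 for Hba-x (adjusted p = 4.19e-12), 4.21 ± 0.33 for Hbb-bh1 (adjusted p = 6.41e-10) and 1.21 ± 0.22 for Alas2 (adjusted p = 0.000174). These 4 were detected on 2, 8, 9 and 5 of the 19 earlier arrays, so their differences depend on background values and neither a fold nor a ranking is given. Trim10 was higher by 0.47 ± 0.08 (adjusted p = 6.71e-05), less than 1.5-fold, and was detected on 1 array, E10.5 CNH replicate 1, where it read 5.61.

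**Figure D4:**
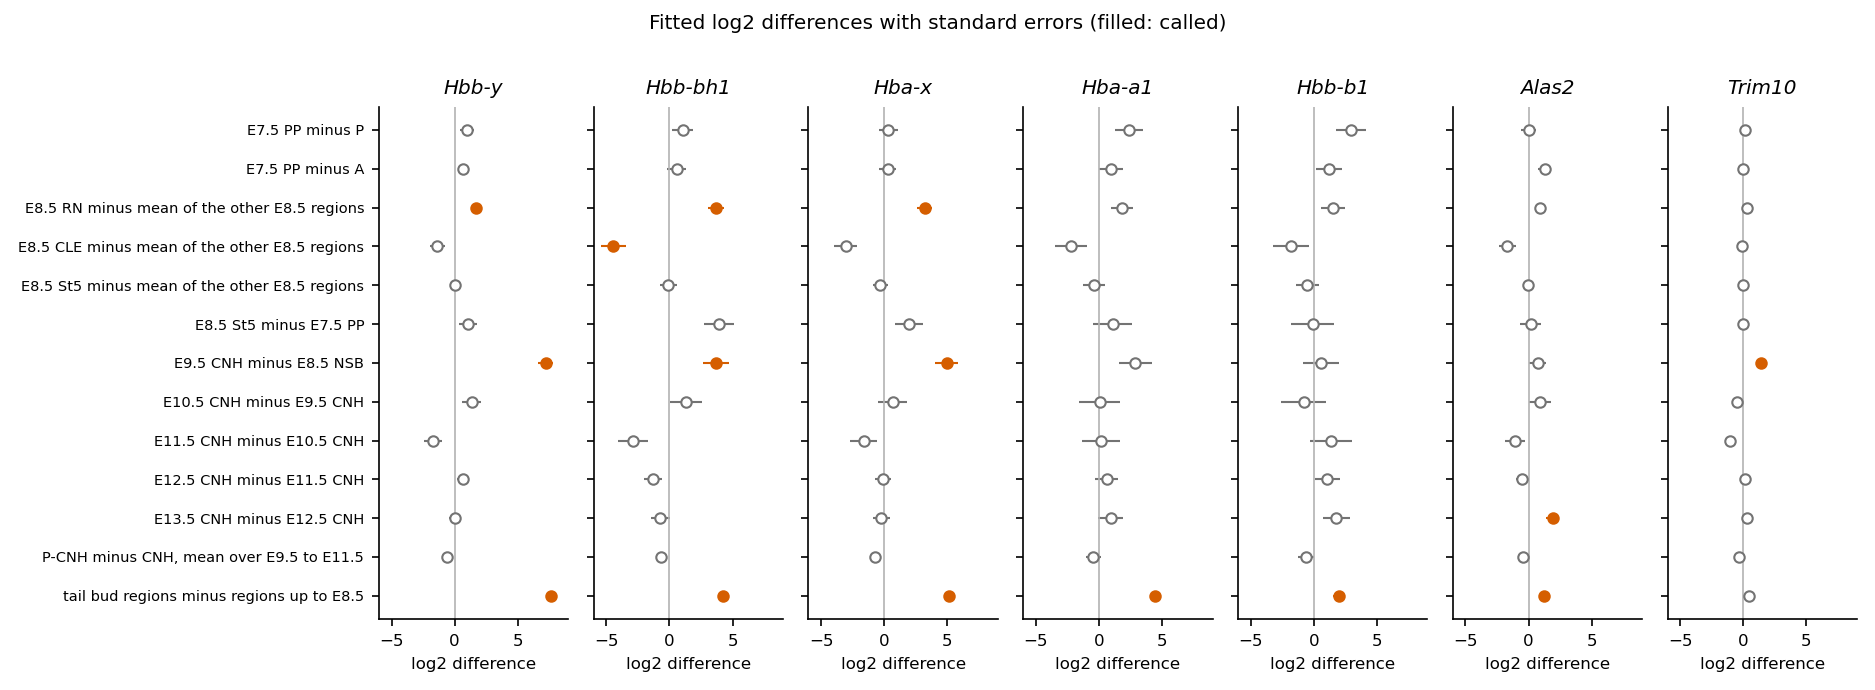
Fitted log2 difference with its standard error (horizontal axis) of the 7 genes in 13 comparisons (vertical axis); filled points were called. The embryonic globins are called higher in RN, at E9.5 and in the tail bud as a whole, and Hbb-bh1 lower in CLE, while the adult-type pair is called in the tail bud as a whole only, and Alas2 also from E12.5 to E13.5.

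Within the tail bud, P-CNH and CNH can be compared on 3 days. At E9.5 Hbb-y read 11.33 and 10.54 in E9.5 P-CNH, Hbb-bh1 11.07 and 9.81, and Hba-x 9.82 and 9.42, all below both E9.5 CNH arrays. Alas2, at 5.43 and 4.65, was not detected there, against 7.23 and 7.43 in CNH. At E10.5 the regions were close, with Hbb-y at 13.14 and 12.96 in P-CNH and 13.46 and 13.49 in CNH, all 4 in batch 1. At E11.5 they overlapped, with 11.98 and 13.67 in P-CNH and 13.37, 13.74 and 11.38 in CNH.

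The fitted P-CNH minus CNH difference of Hbb-y was -2.09 ± 0.48 at E9.5 (adjusted p = 0.102, and no globin was called at this stage), -0.42 ± 0.46 at E10.5 and 0.62 ± 0.45 at E11.5. Averaged over these stages no gene of the 7 was called in limma, where 0.649% of all genes were (2 of 7 and 698 of 15556 at an unadjusted p under 0.05). Whether the difference itself changed with stage was tested as an interaction, and 1 of 7 genes was called, against 0.0386% of all genes. That gene was Trim10, whose values of 4.59 and 4.46 in E9.5 P-CNH and 6.14 and 6.07 in E9.5 CNH were below detection. For Hbb-y the change from E9.5 to E11.5 was 2.71 ± 0.63 (adjusted p = 0.200), and for Alas2 2.90 ± 0.70 (adjusted p = 0.223).

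From day to day along the CNH few steps passed. None of the 7 genes was called from E9.5 to E10.5, from E10.5 to E11.5 or from E11.5 to E12.5 in limma, where 0.0836%, 0.0900% and 0.244% of all genes were. At an unadjusted p under 0.05 these steps had 0, 3 and 0 of 7, against 1084, 628 and 1258 of 15556. The first step shows what the batch term does here: Hbb-y averaged 13.49 at E9.5 and 13.47 at E10.5, yet its fitted difference was 1.35 ± 0.77, because E10.5 lies wholly in batch 1, which NSB replicate 3 alone joins to the other batches. E11.5 CNH replicate 3, from batch 3, read lower than replicates 1 and 2 for every globin: 11.38 against 13.37 and 13.74 for Hbb-y, and 8.34 against 11.67 and 11.85 for Hbb-b1.

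From E12.5 to E13.5 Alas2 rose, from 6.59 and 5.98 to 8.48 and 7.94, by 1.93 ± 0.52 (3.81-fold, adjusted p = 0.0251, n = 2 each). It was the 1 of 7 genes called, where 9.69% of all genes were. The call was lost without E12.5 CNH replicate 1 or 2, or without E13.5 CNH replicate 2, the array with the fewest detected probes (10814), as well as with cyclic loess (1.14, adjusted p = 0.172) and with no batch term (adjusted p = 0.0789). Hbb-b1 went from 12.498 and 10.14 to 14.18 and 12.03, a difference of 1.79 ± 1.06 that missed the threshold (adjusted p = 0.267). Both tested globin partners were called higher at this step. Eraf, the chaperone of free alpha chains, rose by 1.74 ± 0.51 (adjusted p = 0.0361). Hbb-b2, a second adult beta chain, was at least 2.64-fold higher (adjusted p = 0.000180). Its probe was detected on 2 arrays of 36, both of E13.5 CNH. It was thus tested only through the region where it is high, and no conclusion is drawn from its call. Tfrc, the transferrin receptor, fell by 1.79 (-1.79 ± 0.32, adjusted p = 0.00184). Spna1, the erythroid alpha spectrin, was called higher, at least 1.59-fold (adjusted p = 0.0230), but was detected on 1 array of 36. Endothelial markers rose too, 4 of 6, with Pecam1 at least 3.97-fold higher (adjusted p = 0.000756), and their summed intensity went from 624 and 378 to 1839 and 1515. Among the 5 macrophage and leukocyte markers Tyrobp fell by 0.84 at this step; Lyz2 was called lower too, but was detected on 1 array of 36. The part of vessels and of other blood cells in these changes was not tested.

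The make-up of the globins shifted within the tail bud, which ratios within an array show without the level of red cell RNA in the pool. The log2 ratio of Hba-a1 to Hba-x lay between 0.47 and 0.87 on the 8 arrays of E9.5 and E10.5 and between 1.07 and 3.47 on the 9 arrays of E11.5 to E13.5, with no overlap. Its mean rose by 1.26 (exact two-sided permutation test over 17 arrays, adjusted p = 0.000823 over 4 ratios). The test shuffled arrays without regard to region or batch, so it takes replicate arrays of a region as independent. Batch 1 holds no array later than E10.5. Each ratio sets probes of different response against each other, so only its change is read. The ratio of Hbb-b1 to Hbb-bh1 rose by 3.22 (adjusted p = 0.00181 by the same exact test), from between -3.28 and -1.76 to between -2.68 and 5.36. On E13.5 CNH replicate 1 it stood at 5.36, and on replicate 2 at 2.47, the latter below E12.5 CNH replicate 1 at 2.81.

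The ratio of Hbb-bh1 to Hbb-y fell by 1.91 (adjusted p = 0.00236, exact permutation test), from between -0.84 and -0.11 to between -5.22 and -0.56. Hbb-bh1 itself read 13.35 and 13.33 in CNH at E9.5, 12.71 and 12.70 at E10.5, 11.71, 13.17 and 9.31 at E11.5, 9.69 and 10.15 at E12.5, and 8.82 and 9.56 at E13.5, while Hbb-y stayed between 11.38 and 14.04 on the same arrays. The ratio of Hbb-b1 to Hbb-y rose by 1.31 (adjusted p = 0.0120), from between -4.02 and -2.60 to between -3.40 and 0.14. Within batch 2 the changes were 1.56, 4.46, -2.66 and 1.80 in the order given, and within batch 3, which has a single early array, 1.22, 2.72, -1.40 and 1.32, so each kept its direction in both, though none passed 0.05 in batch 2 (adjusted p of 0.0762 to 0.0857; 3 against 4 arrays, smallest possible p 0.0286). In batch 3, with 1 against 5 arrays, the smallest possible p is 0.167, so the test could not pass there.

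**Figure D5:**
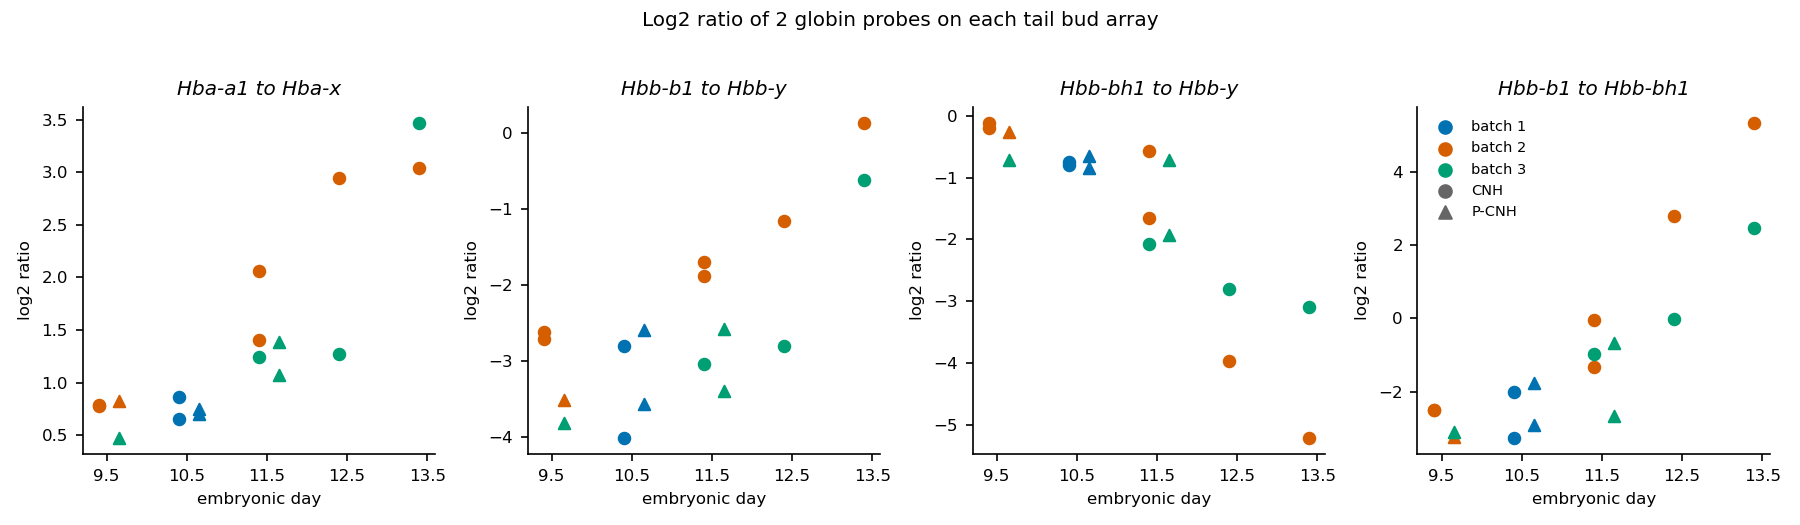
Log2 ratio of a pair of globin probes (vertical axis) on each of the 17 tail bud arrays by embryonic day (horizontal axis, points shifted slightly sideways); circles are CNH, triangles P-CNH, coloured by batch. Hba-a1 to Hba-x stays between 0.47 and 0.87 to E10.5 and reaches 3.47 at E13.5, and Hbb-bh1 to Hbb-y falls to -5.22.

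The probes of a gene did not all tell the same story. The array has 11 probes named Hbb-b1, of which 10 were kept. Each of the 10 was called higher in the tail bud than before it, by 1.20 to 2.37, and from E12.5 to E13.5 all 10 were higher, by 1.79 to 4.17, of which 2 were called. The weaker ILMN_1235372 and ILMN_2544056 were each detected on 20 arrays, fewer than the 29 to 33 of the other 8. Adult alpha and beta globin genes exist as near-identical copies (Hba-a1 and Hba-a2, Hbb-b1 and Hbb-b2), so a probe of one can read another and the copy behind these values is uncertain. The 2 probes of Hbb-y gave the same course, with means of 12.90 and 12.75 in the tail bud and 5.05 and 5.00 before it. The second probe of Hbb-bh1, ILMN_2550129, was detected on 1 array and read 5.37 up to E8.5 and 5.23 in the tail bud, so that the Hbb-bh1 values rest on a single probe.

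Other genes of red cells were measured on the arrays. Between the tail bud and earlier regions, where 20.7% of all genes were called, 4 of 10 tested membrane genes rose, with Slc4a1 at least 6.32-fold (adjusted p = 1.58e-11), Epb4.9 by 2.45 ± 0.21 (adjusted p = 3.98e-09) and Gypc by 1.97 ± 0.16 (adjusted p = 1.88e-09). Slc4a1 was detected on 17 arrays, none of them earlier than E9.5. Of the tested globin partners Eraf rose by 2.13 ± 0.22 (adjusted p = 6.53e-08); Hbb-b2 was also called, but was detected on 2 of 36 arrays. Of 11 haem and iron genes 1 rose, Ppox by 0.87 ± 0.20 (adjusted p = 0.00175), and 8 of the 11 were detected on at least 35 arrays. Of 6 enzymes 1 fell, Car2 by 1.42 (-1.42 ± 0.30, adjusted p = 0.000768). Among 7 regulators Lmo2 and Epor, the erythropoietin receptor, rose by 2.86 ± 0.17 and 1.08 ± 0.12, and 2 fell, of which Gata2 fell by 1.43. The medians of these lists were 1.37 for the partners, 0.18 for membrane genes, 0.092 for haem and iron, 0.13 for enzymes and 0.16 for regulators.

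Lists for other cell types were read in the same way. Macrophage and leukocyte markers summed to between 127 and 235 on every array up to E10.5 and to between 356 and 1192 from E11.5, and 3 of 5 were called higher in the tail bud, where 20.7% of all genes were called. All 7 visceral endoderm markers were called lower there. Endothelial markers had 3 called higher and 1 lower of 6. For megakaryocytes 2 genes could be tested, Itga2b and Ppbp, and neither was called in any of the 13 comparisons; each was detected on 3 arrays at most.

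The 10 genes most like the 7 in course were found by the Pearson correlation, over 36 arrays, of each gene's main probe with the mean of the 7 genes' centred log2 intensities. They were Eraf (0.933), Slc4a1 (0.918), Zeb1 (0.911), A730054J21Rik (0.907), D14Ertd171e (0.896), Irf2 (0.895), Lypd6 (0.879), Hoxa11s (0.878), Ulk2 (0.878) and 5830411I20 (0.877). The first pair, Eraf and Slc4a1, belongs to the red cell lists. Zeb1, A730054J21Rik, Irf2, Lypd6 and 5830411I20 were detected on all 36 arrays, and all 10 had a higher mean in the tail bud than before it.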

How the data were processed

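The authors deposited, for 45281 probes, the bead intensity before any normalisation, which is linear, beside a detection p-value that ranks the probe among negative controls. The authors' own lumi, variance stabilisation, spline and ComBat steps were not applied to this table. Here neqc (limma 3.58.1, R 4.3.3, offset 16) gave log2 intensities, and the 21712 probes of 15556 genes detected anywhere (p-value under 0.01) were kept. Between 10814 and 16256 probes were detected per array, and the number of arrays limits the precision.

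All arrays entered 1 limma model with region and batch, 18 residual degrees of freedom, moderated tests and Benjamini-Hochberg adjustment over all kept probes; a call takes 1.5-fold or more with adjusted p ≤ 0.05. A gene is represented by its probe of highest mean. For a probe undetected throughout 1 side, "at least" gives the brighter mean over the higher of the dim probe's value and the lowest detected signal of each array, without the batch term. Where this value exceeded the fitted fold, it is not called a minimum. Shares of all genes count each gene's main probe. Ratios were compared by exact permutation. The scripts were tested on simulated data; figures used Python 3.11.15 with matplotlib 3.10.9.

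The 7 genes and the lists were chosen with earlier results of these data known. Named genes are the 7, up to 3 called genes of largest difference per list and comparison, and the 10 of highest correlation; 1 gene that this rule picks is not reported here. The lists were globin partners, haem and iron, membrane, enzymes and regulators, and endothelial, megakaryocyte, macrophage and leukocyte and visceral endoderm markers. Alternatives were no background correction, offset 100, cyclic loess, no batch term, batch means removed, BeadChip as a random block, other filters, the second probe, a replicate block, single batches and leaving out arrays.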

Additional observations from a re-analysis of the deposited data

Results flagged for a closer look

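Trim10 was the only 1 of the 7 genes called by limma for the interaction of P-CNH minus CNH with stage. The fitted term for E11.5 against E9.5 was 2.19 in log2 (SE 0.25, adjusted p = 0.000358), from -1.49 at E9.5 to 0.69 at E11.5. Its probe was not detected on any array of these stages, so the term compares background values and is not read as a change in Trim10. The cause was not tested, and without the probes that miss detection in every region it was not tested.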

How the results depend on the processing

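The counts of called genes in RN (3 of 7), in the tail bud (6 of 7) and over all regions (7 of 7) stayed within 1.5 times under every alternative that keeps all arrays. In E9.5 CNH minus E8.5 NSB the count was 4, and 2 with cyclic loess (without Hbb-bh1 and Trim10), 3 with offset 100 or the stricter filter, 5 with batch means removed (with Hba-a1, 3.32, adjusted p = 0.0173) and 6 with no batch term (with Hba-a1, 3.72, adjusted p = 0.0339, and Alas2, 1.90, adjusted p = 0.0299). The Hbb-y call in RN was lost without background correction, with offset 100, with no batch term and with no filter (differences of 0.887, 0.714, 1.45 and 1.67). In CLE the count of 1 became 0 without background correction, with offset 100, with cyclic loess and with the second probe, 2 with batch means removed (Hbb-y and Hba-x, not Hbb-bh1) or BeadChip as a random block, and 4 with no batch term. In E11.5 minus E10.5 CNH it went from 0 to 1 (Trim10) with no batch term, batch means removed, the BeadChip block or no filter. In E13.5 minus E12.5 CNH it was 0 (Alas2 lost) with cyclic loess, with no batch term and without the 4 arrays with the fewest detected probes, an alternative chosen after seeing the data, which also gave 1 for E8.5 St5 minus E7.5 PP and 3 for the change of P-CNH minus CNH with stage. That change had 0 under the stricter filter and 2 with the second probe. E7.5 PP minus A had 1 (Alas2) with cyclic loess. The second probe of Hbb-bh1 lost the RN call (0.026, adjusted p = 1), kept the E9.5 call (1.23, adjusted p = 0.0172) and turned its tail bud difference to -0.0366 (adjusted p = 0.817). The cause of these shifts was not tested.

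For Hbb-bh1 to Hbb-y the second probe gave -0.72 (adjusted p = 0.160). Within batch 2 the ratio changes, in the order Hba-a1 to Hba-x, Hbb-b1 to Hbb-y, Hbb-bh1 to Hbb-y and Hbb-b1 to Hbb-bh1, were 1.56, 1.80, -2.66 and 4.46, and within batch 3 1.22, 1.32, -1.40 and 2.72. None passed in batch 2, and in batch 3, with 1 early array, the test could not pass (smallest possible p 0.167).

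Leaving out each array in turn, the counts ranged from 0 to 3 in RN (0 without RN replicate 1), 0 to 1 in CLE, 3 to 4 in E9.5 CNH, 0 to 1 in E13.5 CNH and 1 to 2 for the change with stage (2 without E11.5 P-CNH replicate 1). The ratio changes ranged from 1.07 to 1.37, 1.06 to 1.5004, -2.14 to -1.56 and 2.62 to 3.62, with adjusted p up to 0.0256. A region left with 1 array is assumed to vary like the others. Without NSB replicate 3 comparisons across batch 1 could not be estimated. With a replicate block the counts were 3 in RN, 1 in CLE, 3 in E9.5 CNH and 6 in the tail bud, and the Hbb-bh1 call at E9.5 was the 1 lost. Same-numbered replicates did not deviate together throughout (37 of 120 pairs of regions with a correlation over 0.1). Values near background, such as those of Trim10, limit what can be compared.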
